A study of Mus musculus with 8 samples.

Results

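Mitogen-activated protein (MAP) kinase phosphatases are dual-specificity enzymes that switch off the MAP kinases ERK, JNK and p38 by removing the phosphate groups of a threonine and a tyrosine in the kinases' activation loop. The 9 genes described here, *Dusp1*, *Dusp2*, *Dusp4*, *Dusp5*, *Dusp6*, *Dusp7*, *Dusp10*, *Dusp14* and *Dusp16*, were taken by name, and all 9 were found among the 47937 genes listed in the count tables. Their transcripts were measured by RNA sequencing in bone marrow-derived dendritic cells (BMDCs), which are grown from mouse bone marrow in GM-CSF, before and after stimulation with lipopolysaccharide (LPS), a bacterial ligand of the receptor TLR4. The 4 groups were unstimulated WT, unstimulated 3xGrk-/-, LPS-stimulated WT and LPS-stimulated 3xGrk-/- cells, with 2 libraries each.

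The 3xGrk-/- cells, Grk 3xKO in the sample labels, came from mice that carry a germline disruption of Grk3 (Grk3-/-) and whose floxed Grk2 (fl/fl) and Grk6 (fl/fl) genes are deleted by the Cre recombinase Vav-iCre, and the WT cells from mice without Cre. Vav-iCre is active early, in hematopoietic precursors, so that deletion of the genes of the kinases GRK2 and GRK6 starts before the cells differentiate in culture. GRKs phosphorylate active G protein-coupled receptors and thereby end their signaling. Stimulated cells were kept for 24 h with LPS at 20 ng/ml in the presence of GM-CSF. No source used here says whether the libraries of a group came from separate cultures or animals. The study describes RNA isolation in technical triplicates, while the labels show 2 libraries per group. The p-values therefore measure only the spread between these libraries, which may be technical.

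Most MAP kinase phosphatase genes are themselves targets of the pathways that their proteins restrain, which makes them part of a negative feedback. In macrophages and dendritic cells, DUSP1 is known as a brake on p38 and JNK after TLR stimulation that limits the output of inflammatory cytokines. The family is commonly sorted by location and substrate: DUSP1, DUSP2, DUSP4 and DUSP5 are inducible nuclear enzymes, DUSP6 and DUSP7 are cytoplasmic and prefer ERK, DUSP10 and DUSP16 prefer p38 and JNK, and DUSP14 is a small atypical phosphatase that lacks the kinase-docking domain of the others.

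The libraries held 4713305 to 6933358 counted reads. *Grk2* was lower in 3xGrk-/- than in WT cells by a log2 fold change of -1.11 without and -1.89 with LPS, *Grk6* by -1.19 and -1.54, and *Grk3* by -0.36 and -0.42, each past the threshold. *Grk3* thus kept much of its level, with means of 338.5 CPM in WT and 264.5 in 3xGrk-/- cells without LPS and 451 and 338.4 with LPS, so that its counts alone do not show the loss that the label gives. Counts over whole genes also do not show which part of a gene is disrupted. The cultures also differed in cell type markers. Summed over 12 dendritic cell genes, the level was 26330 to 26550 CPM (counts scaled to a common library total, after TMM) in unstimulated WT and 13560 to 13830 in unstimulated 3xGrk-/- cells, and 16910 to 18470 against 14350 to 14640 with LPS. This sum rests largely on *Cd74* (mean 11928 CPM in unstimulated WT cells) and the MHC class II genes. Of the 12 genes, 3 were higher and 8 lower in 3xGrk-/- cells without LPS, and 2 higher and 10 lower with LPS. *Itgax*, the gene of CD11c, went the other way (means of 66.9 CPM in WT and 339 in 3xGrk-/- cells with LPS), as did *Flt3* (17.2 and 33.4 without, 19.6 and 50.1 with LPS). *Ccr7* was higher in 3xGrk-/- cells without LPS (1221 and 1447) and lower with it (3772 and 3028). The sum of 12 macrophage genes was 2371 to 2396 in WT and 8621 to 8653 in 3xGrk-/- cells without LPS, and 687.4 to 705 against 7345 to 7457 with LPS. Without LPS most of it came from *Lyz2*, with means of 1328 CPM in WT and 7066 in 3xGrk-/- cells. Among these genes, 7 were higher and 4 lower in 3xGrk-/- cells without LPS, and 12 of 12 were higher with LPS. The sum of 8 eosinophil genes was 1254 to 1328 against 66.9 to 74.4 CPM without and 1147 to 1249 against 82.7 to 88.7 with LPS, and that of 10 neutrophil genes 721.7 to 767.8 against 532.4 to 547.9 and 349.7 to 404.7 against 210.7 to 233.7. Of the neutrophil genes, 6 were lower and 4 not called without LPS, and of the 9 tested with LPS, 6 were lower and 1, *Csf3r*, was higher (means of 14.6 and 28.1 CPM). Of 8 lymphocyte genes, 6 were at the floor of 3 counts or fewer in every group, as were 5 of 6 erythroid genes. The sums of 8 mast cell and basophil genes and of 6 stromal genes lay at or below 90.5 and 25.9 CPM in every library. In bulk RNA, fewer cells of a type and less RNA per cell cannot be told apart, and the part of these marker differences in the differences between genotypes below was not tested.

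**Figure D1:**
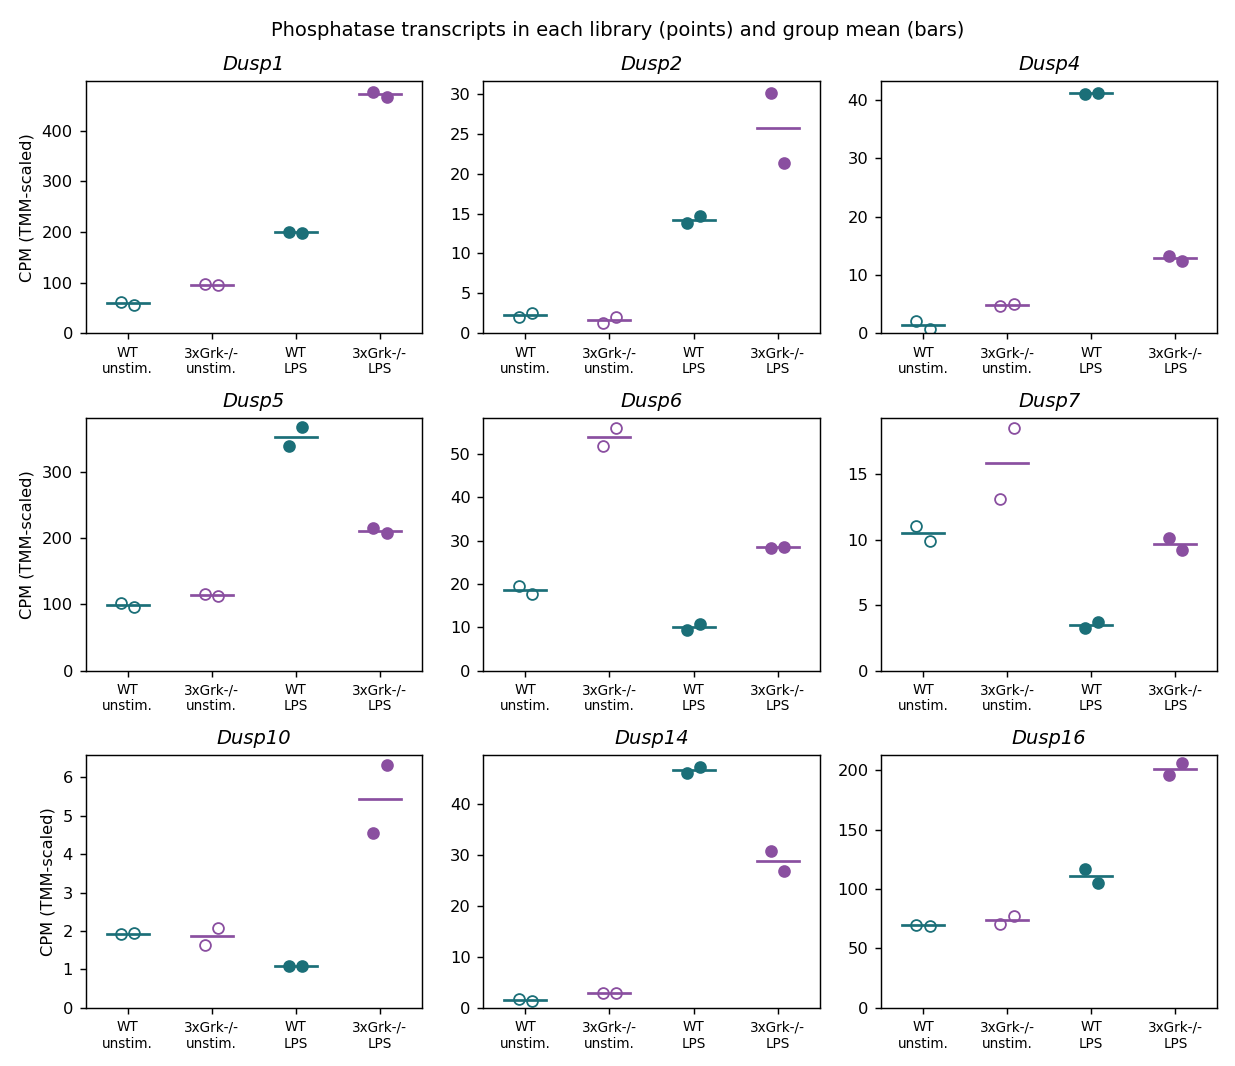
CPM, scaled with TMM over all 8 libraries, of the 9 phosphatase genes in each library (points; open without LPS, filled with LPS; green WT, purple 3xGrk-/-), with the mean of each group as a bar. Each panel has its own linear axis from 0, and the groups differ in order: *Dusp4*, *Dusp5* and *Dusp14* are highest in LPS-stimulated WT, *Dusp1*, *Dusp2*, *Dusp10* and *Dusp16* in LPS-stimulated 3xGrk-/-, and *Dusp6* and *Dusp7* in unstimulated 3xGrk-/- cells.

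Without LPS, 6 of the 9 phosphatases were higher in 3xGrk-/- than in WT cells, 0 were lower and 3 did not pass. The threshold was an adjusted p of 0.05 (edgeR, quasi-likelihood test, Benjamini-Hochberg). DESeq2 called 3 of the 6 (*Dusp1*, *Dusp4* and *Dusp6*), and so did edgeR without replicate 2 of WT. Over all 12000 genes tested, 22.1% were higher and 22.7% lower. The median log2 fold change was 0.59 over the members and -0.00 over all genes. With LPS, 6 members were higher and 3 lower, against 24.7% and 24% of the 11830 genes tested, and the median was 0.86 against -0.01. The members that were lower with LPS, *Dusp4*, *Dusp5* and *Dusp14*, were all among those that were higher without it. Of these 3, DESeq2 called only *Dusp4* without LPS. All 9 passed the filter on low counts, but *Dusp4* and *Dusp14* without LPS and *Dusp10* with LPS had 10 counts in both libraries of 3xGrk-/- cells only, so that their passing leaned on the group in which they were high.

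LPS raised 6 members in WT cells, where 29.5% of the 12541 genes tested rose, and lowered 2, where 30.8% fell. In 3xGrk-/- cells 7 rose and 2 fell, against 28% and 27.4% of all genes. The response to LPS differed between the genotypes, by the interaction of genotype and LPS, for 8 of the 9 members: it was higher in 3xGrk-/- cells for 5 and lower for 3, against 16.5% and 15.9% of all genes. The comparisons share libraries (the unstimulated WT libraries enter the genotype effect without LPS, the response of WT cells and the interaction), and their values are therefore given side by side and are not independent of each other. Where libraries were scaled by their total only, the median of all genes moved to -0.23 in the response of WT and -0.22 in that of 3xGrk-/- cells, and 2448 genes were higher and 5411 lower with LPS in WT cells, in place of 3702 and 3859. In 3xGrk-/- cells the split was 2247 to 5197 in place of 3513 to 3434, and for the genotypes without LPS 1971 to 3515 in place of 2647 to 2722. For the genotypes with LPS it was 2474 to 3571 in place of 2919 to 2835. No member changed direction with the scaling.

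**Figure D2:**
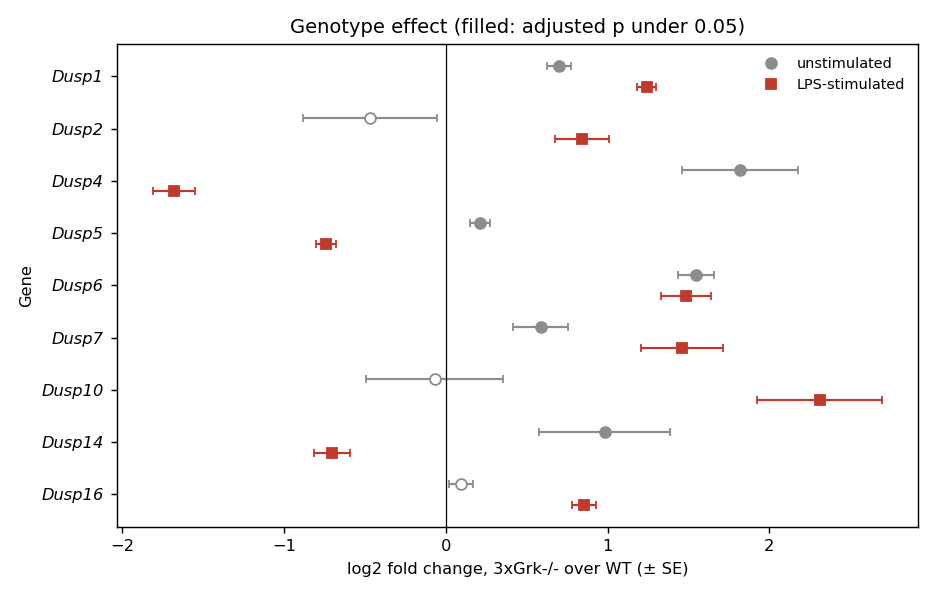
log2 fold change of 3xGrk-/- over WT cells for each phosphatase gene without (grey circles) and with LPS (red squares), with 1 standard error to each side and filled symbols past the threshold of 0.05 (edgeR adjusted p). *Dusp4*, *Dusp5* and *Dusp14* lie above 0 without and below 0 with LPS, while *Dusp1*, *Dusp6* and *Dusp7* lie above 0 and past the threshold in both, and *Dusp16* lies above 0 in both but past it only with LPS.

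Among the inducible nuclear phosphatases, *Dusp1* was higher in 3xGrk-/- cells under both conditions and rose further with LPS. DUSP1 acts on p38 and JNK and also on ERK. The 2 unstimulated WT libraries had 62.3 and 56.5 CPM and the 3xGrk-/- libraries 96.7 and 95.3, and with LPS the values were 201 and 198 in WT and 477 and 467 in 3xGrk-/- cells. The 4 groups stood apart from each other, in the order unstimulated WT, unstimulated 3xGrk-/-, LPS-stimulated WT and LPS-stimulated 3xGrk-/-. The log2 fold change between genotypes was 0.70 without LPS (SE 0.0742, edgeR adjusted p = 4.23e-20) and 1.24 with LPS (SE 0.0607, edgeR adjusted p = 3.15e-13). LPS raised *Dusp1* 3.36-fold in WT and 4.92-fold in 3xGrk-/- cells, and the responses differed by 0.54 on the log2 scale (SE 0.0885, edgeR adjusted p = 1.71e-05). That difference lost its call at a preset biological coefficient of variation of 0.1 (adjusted p = 0.0649). *Dusp1* lies at chr17:26505590-26562128 (GRCm38, GENCODE M21, minus strand) and shares 11 of its 3311 exonic bases with *Ergic1* on the other strand.

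*Dusp2*, which encodes a nuclear phosphatase of activated immune cells, was at 2.1 and 2.52 CPM in unstimulated WT and at 1.34 and 2.08 in unstimulated 3xGrk-/- cells, from 9 to 18 counts per library. With LPS the WT libraries had 13.8 and 14.7 CPM and the 3xGrk-/- libraries 30.1 and 21.4. With LPS the libraries of the genotypes stood apart, with 3xGrk-/- cells higher. Without LPS the nearest libraries lay at 12 counts in 3xGrk-/- and 11 in WT cells. Without LPS the log2 fold change of -0.47 did not pass (interval of 2 SE from -1.30 to 0.36, edgeR adjusted p = 0.373), and with LPS it was 0.84 (SE 0.167, edgeR adjusted p = 0.000259). The response to LPS was 6.16-fold in WT and 15-fold in 3xGrk-/- cells, a log2 difference of 1.31 (SE 0.467, edgeR adjusted p = 0.0308). This difference was not called by DESeq2 (adjusted p = 0.0735), nor without replicate 2 of unstimulated WT (0.188), replicate 1 of unstimulated 3xGrk-/- (0.173) or replicate 1 of LPS-stimulated 3xGrk-/- cells (0.0698).

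The gene with the widest turn was *Dusp4*, whose nuclear product acts on ERK and JNK and is itself induced by ERK signaling. Its counts were 11 and 6 in unstimulated WT and 32 and 29 in unstimulated 3xGrk-/- cells, which is 2.1 and 0.839 CPM against 4.78 and 5.03. After LPS, WT cells had 41.1 and 41.2 CPM and 3xGrk-/- cells 13.2 and 12.5. The groups stood apart, with 3xGrk-/- cells the higher ones without and the lower ones with LPS. The log2 fold change between genotypes was 1.82 (SE 0.361, edgeR adjusted p = 1.9e-06) without LPS and -1.68 (SE 0.131, edgeR adjusted p = 7.22e-10) with it. Without LPS *Dusp4* passed the filter on low counts through the 3xGrk-/- libraries, in which it was high. The rise with LPS was 28-fold in WT and 2.62-fold in 3xGrk-/- cells, and the interaction was -3.50 (SE 0.371, edgeR adjusted p = 1.26e-08). Leaving out 1 library at a time moved the interaction between -4.17 and -2.88, and the WT values rest on the 11 and 6 unstimulated counts. Without replicate 1 of unstimulated WT cells the log2 response of WT was 5.58 and the genotype difference before LPS 2.52, and without replicate 2 they were 4.28 and 1.21, all still called.

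*Dusp5* encodes a nuclear phosphatase that acts on ERK alone among the MAP kinases. The values were 102 and 96.5 CPM in unstimulated WT, 116 and 113 in unstimulated 3xGrk-/-, 340 and 368 in LPS-stimulated WT and 216 and 208 in LPS-stimulated 3xGrk-/- cells. No 2 groups overlapped. The log2 fold change without LPS was small, at 0.21 (SE 0.0626, edgeR adjusted p = 0.00239), and was not called by DESeq2 (0.121), with scaling by library size (0.0861), without replicate 2 of WT (0.0969) or without replicate 1 of 3xGrk-/- cells (0.0523). With LPS it was -0.74 (SE 0.0629, edgeR adjusted p = 2.71e-09). LPS raised *Dusp5* 3.56-fold in WT and 1.85-fold in 3xGrk-/- cells, a log2 difference of -0.95 (SE 0.0864, edgeR adjusted p = 7.62e-10). An antisense transcript of M21, AC137853.2, covers 547 of the 2473 exonic bases of *Dusp5*. The libraries were stranded, but the strand setting of the counting is not given in the sources used here, and without it reads of the pair cannot be told apart.

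By group means, the ERK-selective cytoplasmic phosphatases *Dusp6* and *Dusp7* fell with LPS in both genotypes and were higher in 3xGrk-/- cells throughout. For *Dusp7* some of these calls were lost under alternatives, as given below. DUSP6 is the best known feedback inhibitor of ERK in the cytoplasm. *Dusp6* had 19.4 and 17.6 CPM in unstimulated WT, 51.8 and 56.0 in unstimulated 3xGrk-/-, 9.42 and 10.8 in LPS-stimulated WT and 28.3 and 28.6 in LPS-stimulated 3xGrk-/- cells. All groups stood apart, and LPS-stimulated 3xGrk-/- cells still exceeded unstimulated WT cells. The log2 fold change between genotypes was 1.55 (SE 0.112, edgeR adjusted p = 9.16e-42) without and 1.49 (SE 0.152, edgeR adjusted p = 4.89e-08) with LPS, which is 2.91-fold and 2.82-fold. LPS lowered it to 0.545 of the unstimulated level in WT and 0.528 in 3xGrk-/- cells. *Dusp6* was the one member for which no difference between these responses was called (interaction -0.06, interval of 2 SE from -0.44 to 0.32, edgeR adjusted p = 0.851).

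*Dusp7*, the close relative of *Dusp6*, had 11.1 and 9.93 CPM in unstimulated WT, 13.1 and 18.5 in unstimulated 3xGrk-/-, 3.26 and 3.71 in LPS-stimulated WT and 10.2 and 9.22 in LPS-stimulated 3xGrk-/- cells. LPS-stimulated 3xGrk-/- and unstimulated WT libraries overlapped, and the other neighbours did not. Without LPS the log2 fold change between genotypes was 0.59 (SE 0.169, edgeR adjusted p = 0.00166). It was not called by DESeq2 (0.126), without replicate 2 of WT (0.0551) or without replicate 2 of 3xGrk-/- cells (0.204), where it was 0.34. With LPS the difference was 2.78-fold, a log2 fold change of 1.46 (SE 0.252, edgeR adjusted p = 5.49e-05). The response to LPS was -1.57 on the log2 scale in WT and -0.70 in 3xGrk-/- cells, and without replicate 2 of unstimulated 3xGrk-/- cells the latter was -0.44 and not called (0.0868). The interaction of 0.87 (SE 0.32, edgeR adjusted p = 0.0355) was not called by DESeq2 (0.186) or without replicate 1 of any of the 4 groups (0.0843 for unstimulated WT, 0.146 for unstimulated 3xGrk-/- cells, and with LPS 0.084 for WT and 0.0913 for 3xGrk-/- cells).

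**Figure D3:**
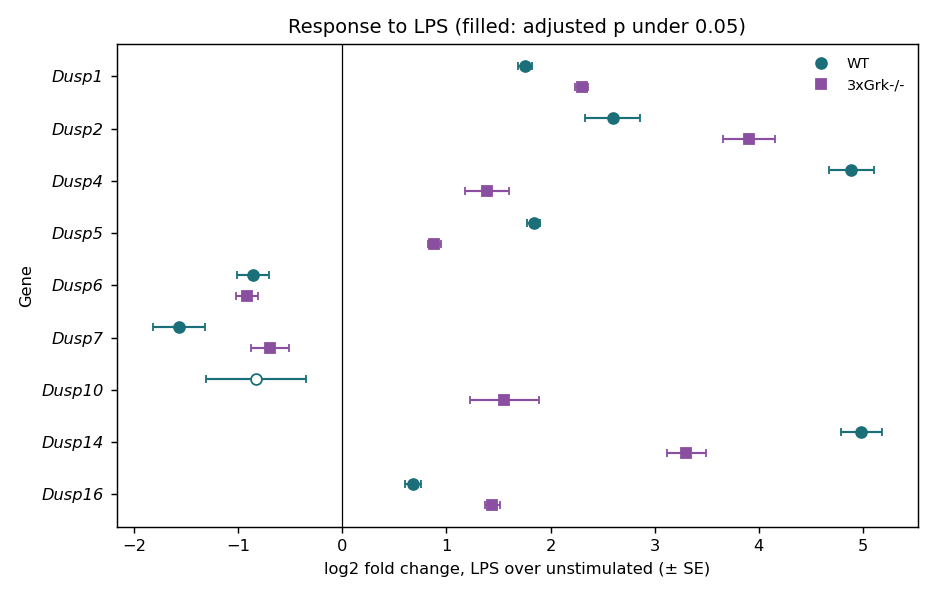
log2 fold change of LPS-stimulated over unstimulated cells for each phosphatase gene in WT (green circles) and 3xGrk-/- cells (purple squares), with 1 standard error to each side and filled symbols past the threshold of 0.05 (edgeR adjusted p). The genotypes lie farthest apart for *Dusp4* (4.89 in WT and 1.39 in 3xGrk-/- cells) and *Dusp10* (-0.83 and 1.56), and nearly coincide for *Dusp6* (-0.86 and -0.92).

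*Dusp16* and *Dusp10*, whose products prefer JNK and p38 over ERK, did not pass the test between genotypes without LPS and were higher in 3xGrk-/- cells with LPS. *Dusp16* had 69.8 and 68.7 CPM in unstimulated WT, 70.5 and 77.6 in unstimulated 3xGrk-/-, 117 and 105 in LPS-stimulated WT and 196 and 206 in LPS-stimulated 3xGrk-/- cells. The genotypes lay close together without LPS (log2 fold change 0.09, interval of 2 SE from -0.06 to 0.25, edgeR adjusted p = 0.328). With LPS they were 1.81-fold apart, a log2 fold change of 0.86 (SE 0.0743, edgeR adjusted p = 3.95e-09). LPS raised *Dusp16* 1.6-fold in WT and 2.71-fold in 3xGrk-/- cells, and the interaction was 0.76 (SE 0.105, edgeR adjusted p = 1.2e-06).

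*Dusp10* was the member with the fewest reads, from 6 to 39 counts per library. Its levels were 1.91 and 1.96 CPM in unstimulated WT, 1.64 and 2.08 in unstimulated 3xGrk-/-, 1.09 and 1.08 in LPS-stimulated WT and 4.54 and 6.31 in LPS-stimulated 3xGrk-/- cells. The unstimulated libraries of the genotypes overlapped, and the LPS-stimulated 3xGrk-/- libraries stood above the other 6. The log2 fold change between genotypes was -0.07 without LPS (interval of 2 SE from -0.92 to 0.78, edgeR adjusted p = 0.911). With LPS it was 2.31 (SE 0.385, edgeR adjusted p = 3.29e-05), from 6 and 7 counts in the WT and 25 and 39 in the 3xGrk-/- libraries. There *Dusp10* passed the filter on low counts through the 3xGrk-/- libraries, in which it was high. The response to LPS was -0.83 in WT and did not pass (interval of 2 SE from -1.79 to 0.13, edgeR adjusted p = 0.135). In 3xGrk-/- cells it was 1.56 (SE 0.333, edgeR adjusted p = 0.000224), and the responses differed by 2.38 (SE 0.585, edgeR adjusted p = 0.00188).

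*Dusp14*, the atypical member, was low without LPS, with 9 counts in each WT and 19 and 17 in the 3xGrk-/- libraries. This is 1.72 and 1.26 CPM against 2.84 and 2.95, and LPS brought it to 46.0 and 47.2 in WT and 30.7 and 26.9 in 3xGrk-/- cells. No 2 groups overlapped. Its passing of the filter on low counts without LPS leaned on the 3xGrk-/- libraries. Without LPS the log2 fold change of 0.98 was called narrowly (SE 0.407, edgeR adjusted p = 0.0351) and was lost with DESeq2 (0.351), with scaling by library size (0.0561) and without any 1 of the 4 libraries (0.0726 without replicate 1 and 0.314 without replicate 2 of WT, 0.134 and 0.144 without those of 3xGrk-/- cells). With LPS it was -0.70 (SE 0.111, edgeR adjusted p = 1.98e-05). The rise with LPS was 31.3-fold in WT and 9.95-fold in 3xGrk-/- cells, a log2 difference of -1.68 (SE 0.39, edgeR adjusted p = 0.0011).

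Because longer transcripts give more reads, levels of different members were compared as CPM per kilobase of exonic sequence. The length joins all exons of a gene in M21 and can exceed that of the transcript expressed, so that levels and shares between members are approximate. On this scale *Dusp5* was the most abundant member in 3 of the groups, with 40.2 in unstimulated WT, 46.4 in unstimulated 3xGrk-/- and 143.2 in LPS-stimulated WT cells. In LPS-stimulated 3xGrk-/- cells *Dusp1* led with 142.6, ahead of *Dusp5* with 85.6. As a share of the summed level of the 9 members, *Dusp1* made up 22.7% in unstimulated WT, 26% in unstimulated 3xGrk-/-, 22.5% in LPS-stimulated WT and 47.5% in LPS-stimulated 3xGrk-/- cells. The share of *Dusp5* was 50.8%, 41.6%, 53.4% and 28.5% in the same order. The sum itself was 79.2, 111.5, 268.4 and 300.1 CPM per kilobase. *Dusp10* stayed under 1% in every group.

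**Figure D4:**
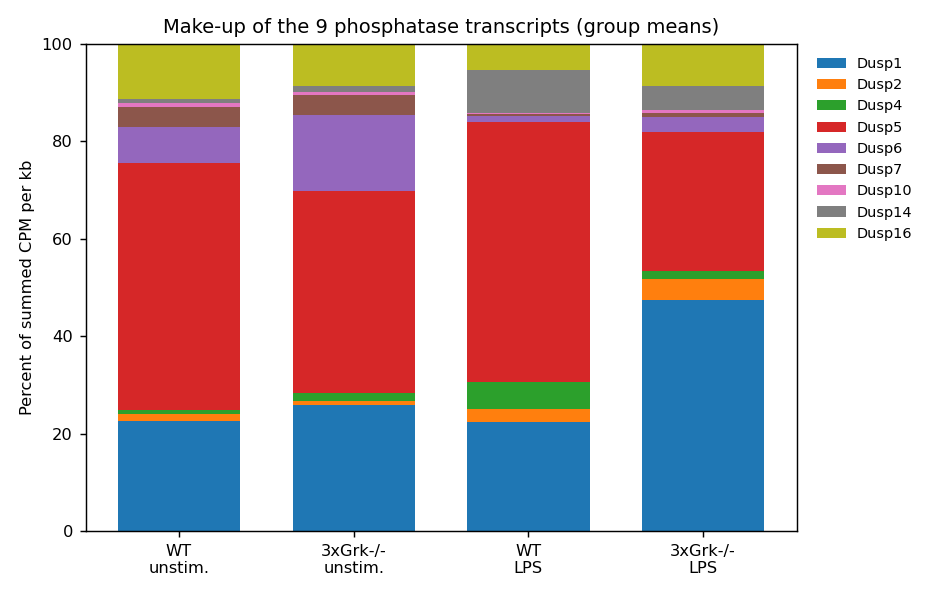
Share of each phosphatase in the summed CPM per kilobase of the 9 genes, from the mean of the 2 libraries of each group. *Dusp5* (red) takes 53.4% in LPS-stimulated WT and 28.5% in LPS-stimulated 3xGrk-/- cells, and *Dusp1* (blue) 22.5% and 47.5%.

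The 250 bases upstream of the RefSeq start (GRCm38.p6) were searched on both strands for motifs of factors downstream of MAP kinases, cAMP and TLR4. An upstream sequence was at hand for 8 of the 9 members (not *Dusp4*). The cAMP response element (CRE) TGACGTCA was found in 1 of them, *Dusp1*, and in 1.55% of all 32851 upstream sequences. Its shorter core TGACG, which is contained in the CRE, was found in 3 (*Dusp1*, *Dusp5* and *Dusp16*) and in 17.8% of all. The 3 sequences are printed because *Dusp1* and *Dusp16* were higher and *Dusp5* lower in LPS-stimulated 3xGrk-/- cells. Each runs 5′ to 3′ on the strand of the gene, capitals mark the CRE or its core on either strand, and bases inside an annotated exon of the gene in M21 were left off.
Dusp1, chr17:26508520-26508722, minus strand: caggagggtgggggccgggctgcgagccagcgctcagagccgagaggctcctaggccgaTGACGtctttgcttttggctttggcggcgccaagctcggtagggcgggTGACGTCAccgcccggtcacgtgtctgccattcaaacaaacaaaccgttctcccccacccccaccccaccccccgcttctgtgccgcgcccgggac
Dusp5, chr19:53528895-53529108, plus strand: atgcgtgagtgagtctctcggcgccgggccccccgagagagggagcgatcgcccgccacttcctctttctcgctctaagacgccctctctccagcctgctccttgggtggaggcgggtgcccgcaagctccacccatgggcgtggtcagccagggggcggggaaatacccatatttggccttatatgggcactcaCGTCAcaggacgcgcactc
Dusp16, chr6:134792629-134792878, minus strand: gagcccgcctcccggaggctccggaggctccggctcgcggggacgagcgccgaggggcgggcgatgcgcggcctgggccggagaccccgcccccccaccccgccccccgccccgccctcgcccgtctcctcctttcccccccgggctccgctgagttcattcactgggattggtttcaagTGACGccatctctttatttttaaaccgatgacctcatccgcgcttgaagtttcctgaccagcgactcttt

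In *Dusp1* the CRE begins 143 bases before the RefSeq start, with another core at 191 bases, and the core lies at 55 bases in *Dusp5* and at 70 bases in *Dusp16*. The CArG box, which binds serum response factor, was found in *Dusp5* only, with matches at 82 and 72 bases, and in 1.47% of all upstream sequences. The E-box CACGTG was found in *Dusp1* and *Dusp2* and in 6.02% of all. The AP-1 motif TGANTCA (6.75% of all) and the NF-kB motif (3.9% of all) had no match in the 8 members. These matches describe the letters of the windows and carry no measurement of binding. Their part in the differences between groups was not tested.

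The other genes of the MAP kinase pathways were taken from lists chosen by function, and their counts describe the lists without a test of a list or of pathway activity. They stand beside 22.1% of all genes higher and 22.7% lower in 3xGrk-/- cells without LPS, and 24.7% and 24% with LPS. Of 8 MAP kinases tested, 2 were higher and 1 lower in 3xGrk-/- cells without LPS, and 1 was higher and 1 lower with LPS. *Mapk13*, the gene of p38 delta, was lower in both (log2 fold change -0.49 without and -1.24 with LPS), and *Mapk6*, which encodes the atypical kinase ERK3, was higher in both (0.56 and 0.74). Of 18 upstream kinases, 7 were higher and 2 lower without LPS, and 1 was higher and 3 lower with it. *Map3k5* (ASK1, a kinase upstream of JNK and p38) was higher in both (0.89 and 1.17). *Map3k8* (TPL2, which couples TLR4 to ERK) was lower with LPS (-0.60), where the WT libraries had 86.7 and 84.2 CPM and the 3xGrk-/- libraries 55.2 and 57.8.

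Of the 20 other phosphatases listed, 14 were tested without and 13 with LPS, and 3 were higher and 2 lower without and 4 higher and 3 lower with LPS. *Dusp8* and *Dusp9*, the remaining classical MAP kinase phosphatases, were too low to be tested, with at most 6 counts in any library. The one with the largest log2 fold change with LPS was *Dusp3*, a small nuclear phosphatase of ERK and JNK. It had 50.3 and 50.4 CPM in unstimulated WT, 81.7 and 81.1 in unstimulated 3xGrk-/-, 16.1 and 16.8 in LPS-stimulated WT and 62.8 and 69.7 in LPS-stimulated 3xGrk-/- cells. The log2 fold change between genotypes was 0.69 without (SE 0.0798, edgeR adjusted p = 4.6e-17) and 2.01 with LPS (SE 0.117, edgeR adjusted p = 5.85e-12). *Dusp23* was higher without LPS (1.53) and *Dusp28* with LPS (1.25), while *Styx*, which encodes a catalytically inactive relative, was lower with LPS (-0.94).

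Of 9 AP-1 genes tested without LPS, 6 were higher and 1 lower in 3xGrk-/- cells, and of 8 tested with LPS 4 were higher and 2 lower. *Fos*, an immediate early gene, had 1.33 and 1.82 CPM in unstimulated WT and 9.70 and 8.67 in unstimulated 3xGrk-/- cells, and 1.09 and 1.24 against 7.80 and 6.80 with LPS. The genotypes stood apart in both conditions, with log2 fold changes of 2.5 and 2.62. *Jund* was lower with LPS (-0.71). Without LPS its change of -0.16 was called although replicate 2 of WT was no higher than the 3xGrk-/- libraries, with 188 and 143 CPM in WT and 143 and 151 in 3xGrk-/- cells, so that only replicate 1 of WT lay above the 3xGrk-/- libraries. Among the ERK feedback and ERK-induced genes, 6 of 13 tested were higher and 2 lower without LPS, and 6 of 12 were higher and 4 lower with it. *Spry2*, a feedback inhibitor of receptor tyrosine kinase signaling, had 3 counts or fewer in each WT library and between 11 and 19 in each 3xGrk-/- library. *Egr1* had 4 and 5 counts in the WT and 11 and 18 in the 3xGrk-/- libraries with LPS. Like *Spry2*, and *Fos* with 13 counts or fewer in each WT library, it passed the filter on low counts through the 3xGrk-/- libraries, where it was high. *Spred2* (-1.13) and *Myc* (-1.03) were lower with LPS, *Myc* also without it (-0.51).

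Of 14 kinases activated by MAP kinases and proteins that bind AU-rich elements, 5 were higher and 3 lower without and 4 higher and 5 lower with LPS. *Zfp36l2*, which promotes decay of AU-rich mRNAs, was higher in both (0.28 and 2.05), and *Rps6ka5*, the gene of the nuclear kinase MSK1, was lower in both (-0.54 and -1.03). The list medians of log2 fold change with LPS lay between -0.07 and 0.32 in these 6 lists, beside 0.86 for the 9 members. In the response to LPS, *Map3k8* rose in both genotypes (1.54 in WT and 1.10 in 3xGrk-/- cells), as did *Map2k1* (0.88 and 0.80), and the interaction was -0.44 for *Map3k8*.

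**Figure D5:**
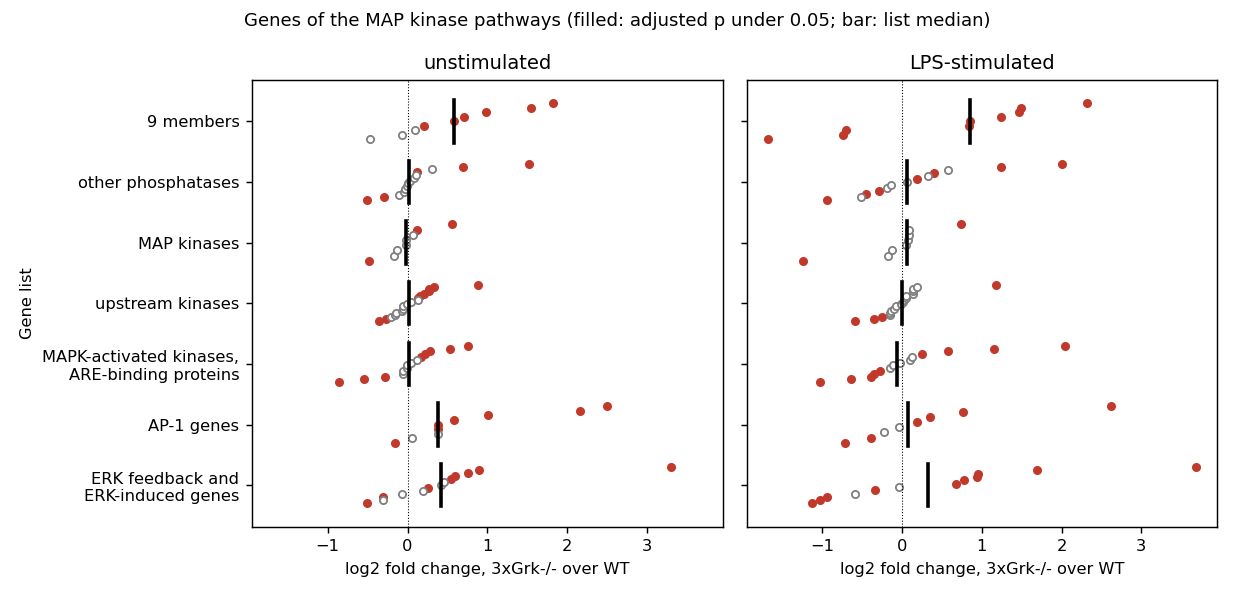
log2 fold change of 3xGrk-/- over WT cells without (left) and with LPS (right) for each tested gene of the 9 members and of 6 pathway lists (filled red past the threshold of 0.05 for the edgeR adjusted p, open grey otherwise; vertical bars are list medians). The members' median is 0.59 without and 0.86 with LPS, and MAP kinases and upstream kinases lie mostly near 0.

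The genes whose log2 CPM followed each member most closely over the 8 libraries, among 9193 genes with a mean log2 CPM of at least 3, are given as a description, since the points are 4 pairs of libraries. They were *Casp4* and *Atf4* for *Dusp1* (Pearson r 0.999 for both), *Il15ra* and *Bcl3* for *Dusp2* (0.998 and 0.995), *Zfp513* and *4930520O04Rik* for *Dusp4* (0.997 and 0.996), and *Mov10* and *Ttyh3* for *Dusp5* (0.999 for both). For *Dusp6* they were *Cd9* and *Ankrd28* (0.996 and 0.992), for *Dusp7* *Rassf8* and *Ttll12* (0.992 and 0.991), for *Dusp10* *Cdk5rap2* and *Tiparp* (0.982 and 0.978), for *Dusp14* *Tgif1* and *Cd1d1* (0.999 and 0.998) and for *Dusp16* *Tnfrsf14* and *Etv3* (0.998 and 0.997). With *Dusp10* the best match was loosest, and its counts were the lowest of the members.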

How the data were processed

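RNA of WT and 3xGrk-/- BMDCs was sequenced by the study in 8 libraries, 2 for each of the 4 groups, and genotype, stimulation and replicate number were taken from the sample labels. Within snakePipes 2.1.0, the authors used STAR 2.7.3a and the mm10 genome and deposited featureCounts 2.0.0 counts of reads per gene, without normalization, in 1 table for each stimulation. The annotation release and the strand setting of the counting are not given in the sources used here. Gene names, lengths and coordinates came from GENCODE M21, which matched 47224 of 47937 gene IDs without their version number, and upstream sequences from RefSeq.

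Counts were fitted with edgeR 4.0.16 in R 4.3.3 (TMM, filterByExpr, glmQLFit and glmQLFTest, Benjamini-Hochberg adjustment over all genes tested, threshold 0.05). Genotypes were compared within each table, and responses to LPS and the interaction came from a single fit of all 8 libraries. The standard error of a log2 fold change was obtained from its F statistic. It is the change, refitted without the small count that edgeR adds by default, over the root of F. Intervals span 2 standard errors to each side of the reported change. Libraries held 4713305 to 6933358 counts, which limits the precision of genes with few counts. A gene with 3 counts or fewer in every library was taken to be at the floor.

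The members and gene lists were chosen with earlier results of these data known, so that counts over them are descriptions. Named beside the members are, in each pathway list, up to 2 of the highest and 2 of the lowest called genes, of which those named in the text are a part, *Dusp8*, *Dusp9* and the GRK genes. Alternatives were DESeq2 1.42.0, RLE factors, library size only, other count filters, preset coefficients of variation, a minimum log2 fold change of 1, the replicate number as a block, other sets of libraries in the fit and each library left out.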

Additional observations from a re-analysis of the deposited data

Results flagged for a closer look

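For 8 of the 9 phosphatases the response to LPS differed between 3xGrk-/- and WT cells by the interaction of genotype and LPS in edgeR (quasi-likelihood test, p adjusted by Benjamini-Hochberg). Of all genes tested, the response was higher in 3xGrk-/- cells for 16.5% and lower for 15.9%. The difference, as the log2 response of 3xGrk-/- minus that of WT cells, was -3.50 for *Dusp4*, -1.68 for *Dusp14* and -0.95 for *Dusp5*, which responded less in 3xGrk-/- cells. It was 2.38 for *Dusp10*, 1.31 for *Dusp2*, 0.87 for *Dusp7*, 0.76 for *Dusp16* and 0.54 for *Dusp1*. For *Dusp7* the positive value means a smaller fall with LPS, and for *Dusp10* a rise in 3xGrk-/- beside a value of -0.83 in WT cells that did not pass the test. Not all of these calls held. For *Dusp2* the call was lost with DESeq2 (adjusted p = 0.0735) and in 3 of the 8 fits with 1 library left out, and for *Dusp7* with DESeq2 (0.186) and in 4 of the 8. Groups of 2 libraries were too small for a test of single libraries that stand apart.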

How the results depend on the processing

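Of 713 values of single members under an alternative, 635 kept their direction and their side of the threshold, 75 kept the direction and lost the call, and 3 changed sign. These 3 were values near 0 that had not been called, with 1 library left out each: *Dusp10* between genotypes without LPS (-0.233 to 0.105 over the libraries left out) and the interaction for *Dusp6* (-0.152 to 0.047). Outside the preset coefficient of variation and the minimum fold change, 24 of 578 lost the call. Members called without LPS were 6, and 3 with DESeq2, 0 at a coefficient of variation of 0.4 and 2 at a log2 fold change of at least 1. With LPS they were 9, and 1 and 5 under the last pair of settings. In the response of WT cells they were 8, and 5 at a coefficient of 0.4 and 5 with at least 10 counts in every library. In 3xGrk-/- cells they were 9, and 3 and 5. For the interaction they were 8, and 1 and 4, and 4 at a fold minimum of 1. The count filter removes *Dusp2*, *Dusp4*, *Dusp10* and *Dusp14* from the fit of all libraries, so that their values could not be had there. Otherwise the cause was not tested.

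Genes called without LPS were 5369, and 3086 with DESeq2, 2905 at a coefficient of 0.1, 448 at 0.4 and 1444 at the fold minimum. With LPS they were 5754, and 782 at 0.4 and 1984 at the fold minimum. The response of WT cells gave 7561, and 1110 and 2700, that of 3xGrk-/- cells 6947, and 849 and 2373. The interaction gave 4068, and 2643 with DESeq2, 2161 at 0.1, 72 at 0.4 and 1375 at the fold minimum. The libraries themselves gave common coefficients of 0.0306 without LPS, 0.0573 with LPS and 0.0463 over all.

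Leaving out each library in turn gave 3 to 5 members and 4253 to 4788 genes without LPS, 9 to 9 members and 4460 to 5714 genes with LPS, 8 to 8 members and 6417 to 7601 genes in the response of WT, 8 to 9 members and 5844 to 7410 genes in that of 3xGrk-/- cells, and 6 to 8 members and 3332 to 4200 genes for the interaction. Where a group kept 1 library, it was assumed to vary like the others. Deviations of same-numbered libraries were close to uncorrelated (correlations between -0.023 and 0.037). Much of the deviation within a group may be counting noise, so that these values cannot show whether same-numbered libraries were paired. With the replicate number as a block, 5, 9, 8, 9 and 8 members and 5292, 5654, 7437, 6795 and 3885 genes were called in the same order of comparisons, and of the members only *Dusp14* without LPS lost its call (adjusted p = 0.0582).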
